A study of Mus musculus with 10 samples.

Results

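The proteins encoded by Sv2a, Sv2b, Sv2c, Syt1, Syt2, Syt4, Syt7, Syt11, Vamp1 and Vamp2 sit on secretory vesicles of neurons, and their transcripts were followed in laser-captured motor neurons of the mouse lumbar spinal cord. The 10 genes were chosen by symbol in the deposited tables, out of 51912 genes in the count files, and all 10 were found and passed the filter on low counts. HSA-NRTN transgenic mice gave 5 libraries and wild-type mice 5, and each genotype had 3 female and 2 male animals. Each library is 1 pool of about 50 motor neurons of 1 animal, taken as cells with a visible nucleolus and an area above 200 μm2, and the sources used here give neither the age nor the strain of the mice. HSA-NRTN mice carry a neurturin transgene under the human skeletal actin promoter, which is known to be active in skeletal muscle fibres, and neurturin is a secreted ligand of the GDNF family. The title of the series asks how neurturin secreted by muscle bears on slow motor neuron identity.

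When an action potential reaches a motor terminal, calcium entry makes vesicles fuse with the membrane and release acetylcholine. Synaptobrevins, encoded by Vamp1 and Vamp2, are the vesicle SNAREs that zip together with syntaxin and SNAP-25 to drive fusion, and tetanus and several botulinum toxins cut them. Synaptotagmins are membrane proteins with paired C2 domains, of which Syt1 and Syt2 are the fast calcium sensors and Syt7 a slower one of higher affinity, while Syt4 and Syt11 do not act as such sensors. SV2 proteins are transporter-like vesicle glycoproteins that bind synaptotagmin and serve botulinum neurotoxin A as receptors, and SV2A protein is known in mouse muscle as a mark of slow motor terminals.

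The paralogs were close in sequence but separable by base. To show how far reads of 1 paralog can be told from those of another, alike stretches of 60 coding bases are given below, with capitals at the positions that differ. They are the most alike windows found codon by codon in 1 coding sequence per gene. Sv2b and Sv2c were each matched to Sv2a, so a stretch in which these 2 are more alike can lie elsewhere. In Vamp1 and Vamp2 the stretch lies within the SNARE motif and 4 positions differ.
Vamp1: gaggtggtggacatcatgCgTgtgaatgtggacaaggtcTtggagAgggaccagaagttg
Vamp2: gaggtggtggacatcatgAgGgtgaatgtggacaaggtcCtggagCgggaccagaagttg
In the fast calcium sensors Syt1 and Syt2, 7 positions of the stretch differ.
Syt1: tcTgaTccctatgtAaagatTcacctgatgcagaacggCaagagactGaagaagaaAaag
Syt2: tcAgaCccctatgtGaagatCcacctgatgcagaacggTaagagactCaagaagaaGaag
Across the 3 SV2 genes 14 positions differ.
Sv2a: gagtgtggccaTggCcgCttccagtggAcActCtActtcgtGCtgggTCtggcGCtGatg
Sv2b: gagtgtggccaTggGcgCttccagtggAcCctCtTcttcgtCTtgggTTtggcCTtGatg
Sv2c: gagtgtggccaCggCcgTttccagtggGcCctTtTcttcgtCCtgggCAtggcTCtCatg
These sequences are from the GENCODE M21 transcripts on GRCm38. Over whole transcripts, the longest run that 2 paralogs share base for base was 18 bases for Vamp1 and Vamp2, 26 for Syt1 and Syt2, 36 for Syt2 and Syt7, 12 to 20 for the other synaptotagmin pairs, and 15, 18 and 37 for the pairs Sv2a with Sv2b, Sv2a with Sv2c, and Sv2b with Sv2c. The files count reads per gene, so splice forms of a gene were not analysed here. Exons of Sv2b share 47 bases with 1500012K07Rik on the opposite strand, which had 377 counts in all libraries together, and those of Syt4 and Syt7 overlap opposite-strand genes that had 4 and 9 counts. The library kit, Smart-seq2 with Tn5, does not mark strand.

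Libraries held 1875971 to 6641695 gene counts, with HSA-NRTN replicates 2 (1875971) and 1 (3257700) the shallowest. All 6 motor neuron markers were detected, with a summed level of 2817 to 4183 CPM, counts scaled to the size of the library, in HSA-NRTN and 2139 to 3597 CPM in wild-type pools. The markers of other neurons summed to 43.8 to 249.7 CPM in HSA-NRTN and 5.16 to 373 CPM in wild-type pools, with all 6 detected somewhere and Slc17a7 at 0 in 8 libraries. In HSA-NRTN replicate 2 the 5 oligodendrocyte markers summed to 1382 CPM, against 193 to 598 CPM in the other libraries, and the 5 astrocyte markers to 733 CPM, against 45.5 to 243.1 CPM elsewhere. Slc1a2 made up 665 CPM of that astrocyte sum. Gfap and Aldh1l1 were also highest there, at 17.8 CPM each, while Slc1a3 was at 0 and Aqp4, at 32.4 CPM, was below its 43.0 CPM in wild-type replicate 2. Pooled cells allow no separation of fewer expressing cells from less RNA per cell. Library sizes for the CPM were scaled by the TMM method of edgeR.

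On the scale of CPM per kilobase of exon, with the union of all exons of a gene as its length, 6 of the 10 genes were abundant and 4 sparse. Syt11 was highest, at a mean of 346 CPM per kilobase over the 10 libraries (SD 78.6), followed by Vamp1 at 248.03 (SD 99.4), Syt4 at 212 (SD 28.3), Sv2b at 80.1 (SD 20.1), Sv2c at 79.7 (SD 14.2) and Syt2 at 45.9 (SD 12.8). The sparse genes were Sv2a at 11.5 (SD 10.4), Vamp2 at 10.995 (SD 7.39), Syt1 at 4.02 (SD 4.94) and Syt7 at 2.75 (SD 2.35). Syt11 lay above Vamp1 in 9 of 10 libraries, Syt4 above Sv2b, Syt2 above Sv2a and Vamp2 above Syt1 in all 10. Among neighbours in this order, Vamp1 and Syt4 (6 of 10 libraries), Sv2b and Sv2c (5 of 10) and Sv2a and Vamp2 (4 of 10), did not keep 1 order between libraries, and Syt1 lay above Syt7 in 7. The order of near neighbours depends on the length used. For Vamp1 the union is 10167 bases and the longest transcript 5709, for Syt11 5205 and 5020, and for Sv2b 8381 and 5524. In CPM without length, the mean of Vamp1 was above that of Syt11, at 2112 against 1663 in HSA-NRTN and 2932 against 1940 in wild-type pools. The sparse genes also varied most. Over the 10 libraries the coefficient of variation of the CPM was 123% for Syt1, 90.6% for Sv2a, 85.5% for Syt7 and 67.2% for Vamp2, and ran from 13.3% for Syt4 to 40.1% for Vamp1 among the other 6, beside a median of 48.4% over all 11630 genes tested.

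None of the 10 genes differed between HSA-NRTN and wild-type pools by the adjusted test. In edgeR's quasi-likelihood test with Benjamini-Hochberg adjustment over all genes tested, 0 of 10 passed 0.05 (adjusted p 0.890 to 0.999), beside 0.0086% of all genes, and DESeq2 and limma voom called 0 of 10 as well. At an unadjusted p under 0.05 there were 2, Vamp2 and Syt1, both with a positive log2 fold change, beside 4.83% of all genes (2.41% positive and 2.42% negative). DESeq2 gave 2 and limma voom 0 at that unadjusted p, beside 698 and 670 of all 11630 genes. For 4 of the 10 genes the log2 fold change was positive and for 6 negative, beside 48.6% positive over all genes tested. The median was -0.04 beside -0.01 over all genes tested. The 2 groups of libraries overlapped for each of the 10 genes, while 1.25% of all genes did not overlap (0.645% above and 0.602% below wild-type).

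**Figure D1:**
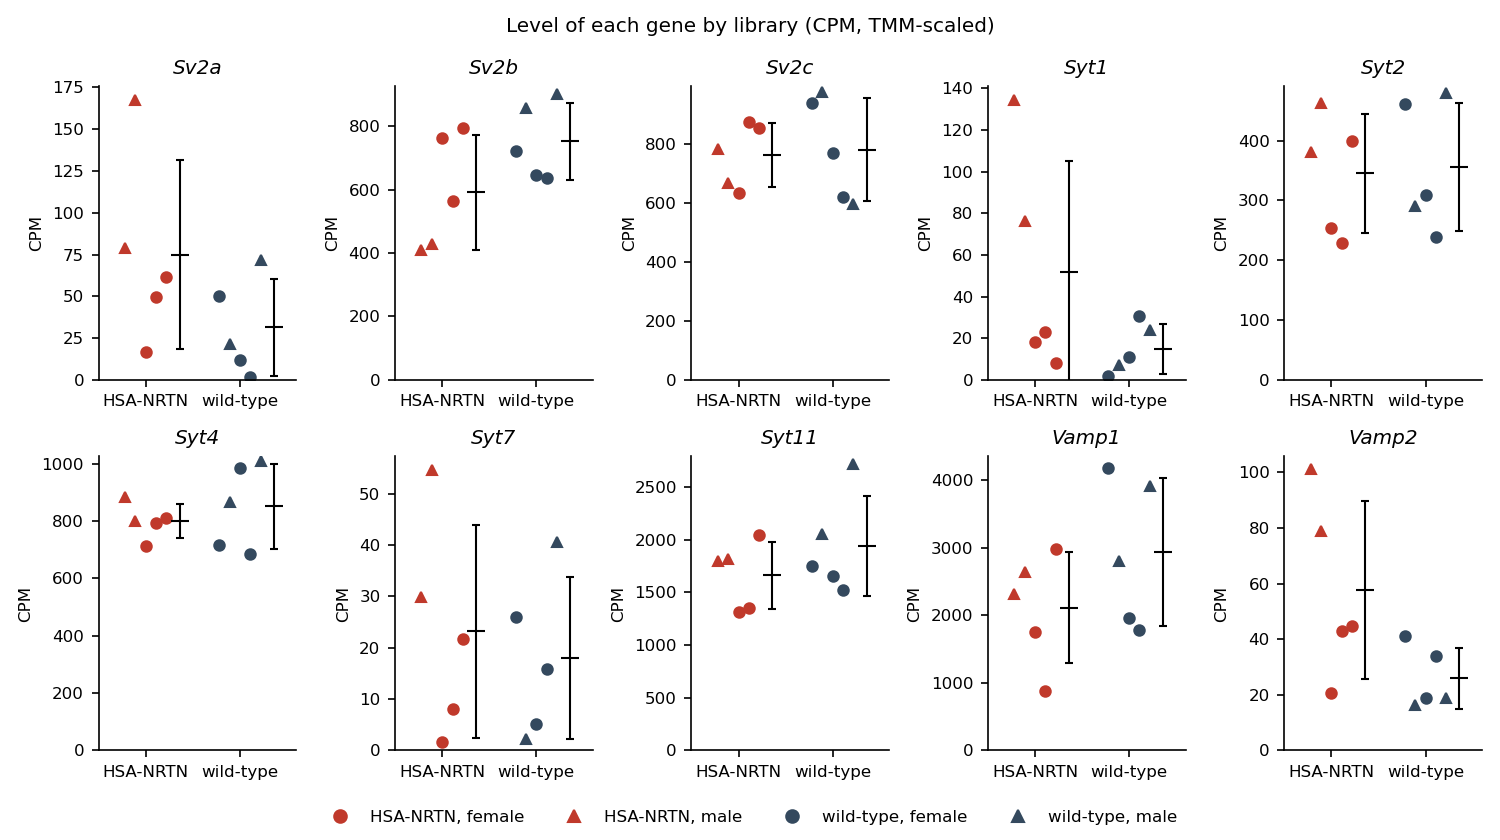
Level of each of the 10 genes in CPM (vertical axes, from 0) in HSA-NRTN and wild-type libraries, with circles for females, triangles for males and black bars for the mean ± SD of 5 libraries. The red triangles of the 2 HSA-NRTN males are the highest points for Sv2a (78.9 and 168 CPM), Syt1 (134 and 76.2 CPM) and Vamp2 (101 and 78.9 CPM). They are the lowest for Sv2b (408 and 427 CPM).

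Sv2a (ENSMUSG00000038486, chromosome 3 from 96181151 to 96195521 on GRCm38), the slow terminal marker, was the most scattered SV2 gene. It was at 78.9, 168, 16.7, 49.6 and 61.4 CPM in HSA-NRTN replicates 1 to 5, against 50.3, 21.5, 12.2, 1.55 and 71.8 CPM in wild-type replicates 1 to 5. The groups overlapped, with 2 HSA-NRTN libraries, replicates 1 and 2, both male, above all other libraries. Wild-type replicate 4, with 9 counts, was far below the rest. The means were 74.8 ± 56.6 and 31.5 ± 28.9 CPM (SD, n = 5 each), and the log2 fold change was 1.24 (SE 0.72, edgeR adjusted p = 0.999). Leaving out HSA-NRTN replicate 2 gave 0.71 and leaving out wild-type replicate 5 gave 1.79. In the authors' deposited table its moderated log2 fold change was 0.74, with an adjusted p of 0.669.

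Sv2b (chromosome 7 from 75114894 to 75309262) and Sv2c (chromosome 13 from 95954594 to 96132577) were the major SV2 genes of these neurons. Sv2b was at 408, 427, 761, 563 and 795 CPM in HSA-NRTN replicates 1 to 5, against 722, 856, 644, 635 and 902 CPM in wild-type replicates 1 to 5. The 2 lowest libraries were HSA-NRTN replicates 1 and 2, both male, and HSA-NRTN replicate 4 was also below the whole wild-type range. The log2 fold change of Sv2b was -0.35 (SE 0.23). Sv2c was at 785, 669, 635, 874 and 854 CPM in HSA-NRTN replicates, against 940, 979, 771, 622 and 597 CPM in wild-type replicates. The groups covered nearly the same range, with a log2 fold change of -0.03 (SE 0.21).

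Sv2a made up a small and uneven part of the SV2 level. Per exon length its share of the 3 SV2 genes was 11.6%, 23.2%, 2.25%, 6.37% and 6.75% in HSA-NRTN replicates 1 to 5, against 5.59%, 2.24%, 1.66%, 0.238% and 8.39% in wild-type replicates 1 to 5. The means were 10.03% ± 8.06 and 3.62% ± 3.31 (SD, n = 5 each), and the 6.41 point difference did not pass (exact two-sided permutation p = 0.127, adjusted over the 3 shares tested 0.151). Sv2b averaged 42.2% ± 10.3 in HSA-NRTN and 50.8% ± 5.38 in wild-type pools, and Sv2c 47.8% ± 6.27 and 45.5% ± 7.03 (SD, n = 5 each). The summed SV2 level was 165 ± 18.9 CPM per kilobase in HSA-NRTN and 177 ± 27.2 in wild-type pools (SD, n = 5 each).

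**Figure D2:**
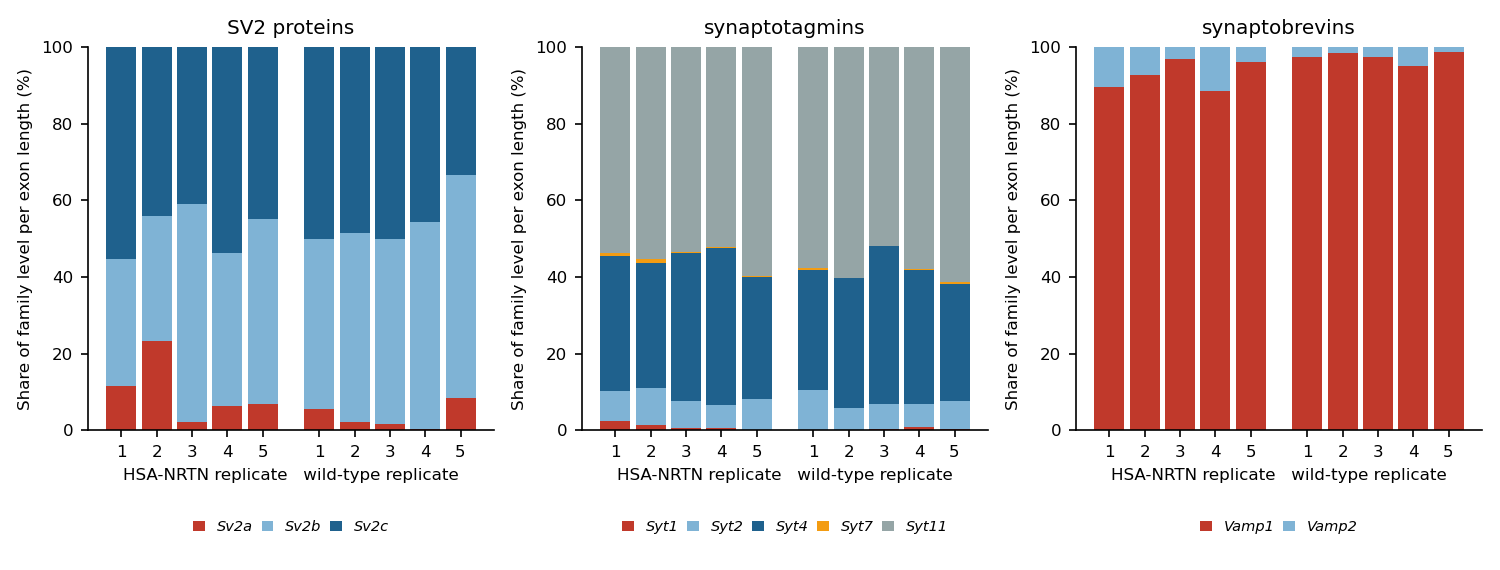
Share of each gene in the level of its family per exon length, in percent (vertical axes), for each HSA-NRTN and wild-type replicate (bars). Sv2a fills 0.238% to 23.2% of the SV2 bars, Syt11 and Syt4 most of the synaptotagmin bars, and Vamp1 88.4% to 98.7% of the synaptobrevin bars.

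Of the fast calcium sensors, Syt2 was the main one in every library and Syt1 was sparse. Syt2 (chromosome 1 from 134646677 to 134762593) was at 381, 462, 254, 229 and 399 CPM in HSA-NRTN replicates 1 to 5, against 462, 291, 310, 239 and 479 CPM in wild-type replicates 1 to 5. The ranges of the groups were nearly the same (log2 fold change -0.05, SE 0.26). Syt1 (chromosome 10 from 108497650 to 109010982) was at 134, 76.2, 18.3, 22.9 and 8.14 CPM in HSA-NRTN replicates, against 2.07, 7.08, 11.03, 30.8 and 24.2 CPM in wild-type replicates. HSA-NRTN replicates 1 and 2 stood above all others, and HSA-NRTN replicates 3 to 5 lay within the wild-type range. The means were 52.0 ± 53.1 and 15.0 ± 12.0 CPM (SD, n = 5 each), and the log2 fold change of 1.77 (SE 0.74) had an unadjusted edgeR p of 0.0301 and an adjusted p of 0.949. Leaving out HSA-NRTN replicate 1 gave 1.02.

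The share of Syt1 in the summed level of Syt1 and Syt2 per exon length was 24.4%, 13.1%, 6.19%, 8.40% and 1.83% in HSA-NRTN replicates 1 to 5, against 0.408%, 2.18%, 3.16%, 10.5% and 4.42% in wild-type replicates 1 to 5. The highest values were those of HSA-NRTN replicates 1 and 2, and the rest of the HSA-NRTN values overlapped with wild-type. The means, 10.8% ± 8.63 and 4.14% ± 3.87 (SD, n = 5 each), differed by 6.65 points, which did not pass (exact two-sided permutation p = 0.151, adjusted over the 3 shares 0.151).

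Syt7, the slower calcium sensor, was the lowest of the 10 genes. It was at 30.0, 54.6, 1.65, 8.12 and 21.7 CPM in HSA-NRTN replicates 1 to 5, against 25.9, 2.27, 5.16, 15.8 and 40.7 CPM in wild-type replicates 1 to 5. Both groups spread over more than a factor of 10, and the log2 fold change of 0.35 (SE 0.79) turned to -0.24 without HSA-NRTN replicate 2. Syt7 lies on chromosome 19 from 10389090 to 10453180.

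Syt11 and Syt4, which are not calcium sensors, had the highest levels of the 5 synaptotagmins, above Syt2. Syt11, a vesicle protein of endocytic and lysosomal trafficking, was at 1798, 1814, 1316, 1348 and 2039 CPM in HSA-NRTN replicates 1 to 5, against 1750, 2057, 1652, 1525 and 2718 CPM in wild-type replicates 1 to 5. Only HSA-NRTN replicates 3 and 4 lay below all wild-type libraries (log2 fold change -0.22, SE 0.22). Syt4, found on dense core vesicles and known to be induced by activity, was at 882, 801, 713, 794 and 811 CPM in HSA-NRTN replicates, against 716, 865, 984, 685 and 1008 CPM in wild-type replicates. All HSA-NRTN values lay inside the wild-type range, and the log2 fold change was -0.09 (SE 0.19). Syt11 lies on chromosome 3 from 88744700 to 88775164 and Syt4 on chromosome 18 from 31437808 to 31447406. Per exon length Syt11 held 54.9% ± 2.90 and Syt4 35.9% ± 3.99 of the 5 synaptotagmins in HSA-NRTN pools, against 57.7% ± 3.66 and 34.3% ± 4.24 in wild-type pools (SD, n = 5 each).

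Vamp1, the synaptobrevin of the neuromuscular junction, was the predominant one in every library. Vamp1 (chromosome 6 from 125215551 to 125245964) was at 2316, 2635, 1759, 875 and 2974 CPM in HSA-NRTN replicates 1 to 5, against 4183, 2809, 1966, 1784 and 3916 CPM in wild-type replicates 1 to 5. HSA-NRTN replicates 3 and 4 lay below all wild-type libraries and wild-type replicates 1 and 5 above all HSA-NRTN libraries. The means were 2112 ± 824 and 2932 ± 1095 CPM (SD, n = 5 each), and the log2 fold change was -0.47 (SE 0.32, edgeR adjusted p = 0.999).

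Vamp2, the synaptobrevin that prevails in the forebrain, had the smallest p of the 10 genes. Vamp2 (chromosome 11 from 69088490 to 69092384) was at 101, 78.9, 20.7, 43.0 and 44.9 CPM in HSA-NRTN replicates 1 to 5, against 41.3, 16.4, 19.0, 34.1 and 19.0 CPM in wild-type replicates 1 to 5. The groups overlapped through HSA-NRTN replicate 3, and the other 4 HSA-NRTN values exceeded each wild-type value. The means were 57.8 ± 32.1 and 26.0 ± 11.1 CPM (SD, n = 5 each), and the log2 fold change of 1.15 (SE 0.43) had an unadjusted edgeR p of 0.0168 and an adjusted p of 0.890. In the authors' deposited table the adjusted p of Vamp2 was 0.430.

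The share of Vamp1 in the level of the 2 synaptobrevins per exon length was 89.5%, 92.6%, 97.0%, 88.4% and 96.1% in HSA-NRTN replicates 1 to 5, against 97.4%, 98.5%, 97.5%, 95.1% and 98.7% in wild-type replicates 1 to 5. HSA-NRTN replicates 1, 2 and 4 lay below all wild-type libraries. The means were 92.7% ± 3.82 and 97.4% ± 1.41 (SD, n = 5 each), a difference of -4.73 points, HSA-NRTN minus wild-type. The exact two-sided permutation p was 0.0397, and adjusted over the 3 shares it was 0.119, which did not pass. With 5 against 5 libraries the smallest p possible is 0.00794. Without wild-type replicate 4 the adjusted p was 0.0476 (exact permutation test, -5.30 points). Within each sex, a split chosen after seeing the data, the difference was -2.86 points in females and -7.52 points in males (exact permutation p = 0.5 and 0.333). For 2 against 2 males 0.333 is the smallest p this test can give, and for 3 against 3 females it cannot reach 0.05 either. The tests within each sex therefore could not pass. In males genotype also cannot be told apart from the run of animal numbers described below.

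The values of Syt1, Vamp2 and Sv2b differed from the other libraries in the same 2 pools, those of the HSA-NRTN males. Sv2a was also highest in these 2 pools, at 78.9 and 168 CPM, against 1.55 to 71.8 CPM in the other libraries. The log2 fold change of Vamp2 was 0.22 (SE 0.45) in females alone and 2.34 (SE 0.53) in males alone. That of Syt1 was 0.19 (SE 0.84) in females and 2.73 (SE 0.69) in males, and that of Sv2b 0.10 (SE 0.24) in females and -1.08 (SE 0.34) in males. The HSA-NRTN males have lower animal numbers than the wild-type males. In males genotype therefore cannot be told apart from the run of animal numbers described below, and the interaction draws on these males. The genotype by sex interaction, the log2 fold change in females minus that in males, had an unadjusted edgeR p of 0.00795 for Vamp2, 0.00868 for Sv2b and 0.0504 for Syt1, with an adjusted p of 0.922 for each, so no difference between the sexes passed. Of the 10 genes, 0 passed and 2 had an unadjusted interaction p under 0.05, beside 5.14% of all genes (2.6% positive and 2.55% negative). DESeq2 and limma voom called 0 as well, with 3 and 2 at that unadjusted p, beside 789 and 468 of all 11630 genes. Sv2a was nearest to the same difference in both sexes among the sparse genes, at 1.02 (SE 0.94) in females and 1.38 (SE 0.64) in males.

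Some other values set the same 2 male pools apart. Besides the lowest gene counts, they had the lowest shares of reads counted to genes, 23.4% and 13.5%, against 24.8% to 42.3% in the other libraries. Snap25, the plasma membrane SNARE that pairs with synaptobrevin, was at 5164 and 4142 CPM in them and at 7953 to 10767 CPM in the other 8 libraries. Gad2, an enzyme of GABA synthesis and marker of inhibitory neurons, was at 38.9 and 53.0 CPM in HSA-NRTN replicates 1 and 2. It was at 0 to 8.13 CPM in the other 8 libraries. The high glial sums given above were those of HSA-NRTN replicate 2 alone and are not shared by the 2 pools. In HSA-NRTN replicate 1 the oligodendrocyte and astrocyte sums lay within the range of the other 8 libraries. The other inhibitory markers did not set these 2 male pools apart. Gad1 was at 0.593 and 3.78 CPM in them and at 0 to 6.96 CPM elsewhere, Slc32a1 at 4.45 and 25.9 CPM and at 0 to 25.9 CPM elsewhere, and Slc6a5 at 57.2 and 77.3 CPM and at 0 to 146 CPM elsewhere. The summed markers of other neurons were 249.7 and 245 CPM in these pools and 5.16 to 373 CPM in the other 8 libraries. The 373 CPM, in wild-type replicate 5, included 300 CPM of Slc17a6 and 8.13 CPM of Gad2. The labels number the animals in 2 runs, without saying that a run is a batch. Both HSA-NRTN males belong to the earlier one, with HSA-NRTN replicate 3 and wild-type replicate 1. Both wild-type males belong to the later one, so among males genotype and run cannot be told apart. With that run as a covariate the log2 fold changes were 0.97 for Syt1, 0.88 for Vamp2, 0.96 for Sv2a and -0.26 for Sv2b (unadjusted edgeR p 0.384, 0.0571, 0.223 and 0.311). With the number of genes detected per library as covariate they were 1.89, 1.48, 1.79 and -0.42 (unadjusted edgeR p 0.0230, 0.00196, 0.0192 and 0.126). None passed with either covariate (lowest adjusted edgeR p 0.846 and 0.278). The part of depth and of these markers in the values of Syt1, Vamp2, Sv2b and Sv2a was not tested.

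**Figure D3:**
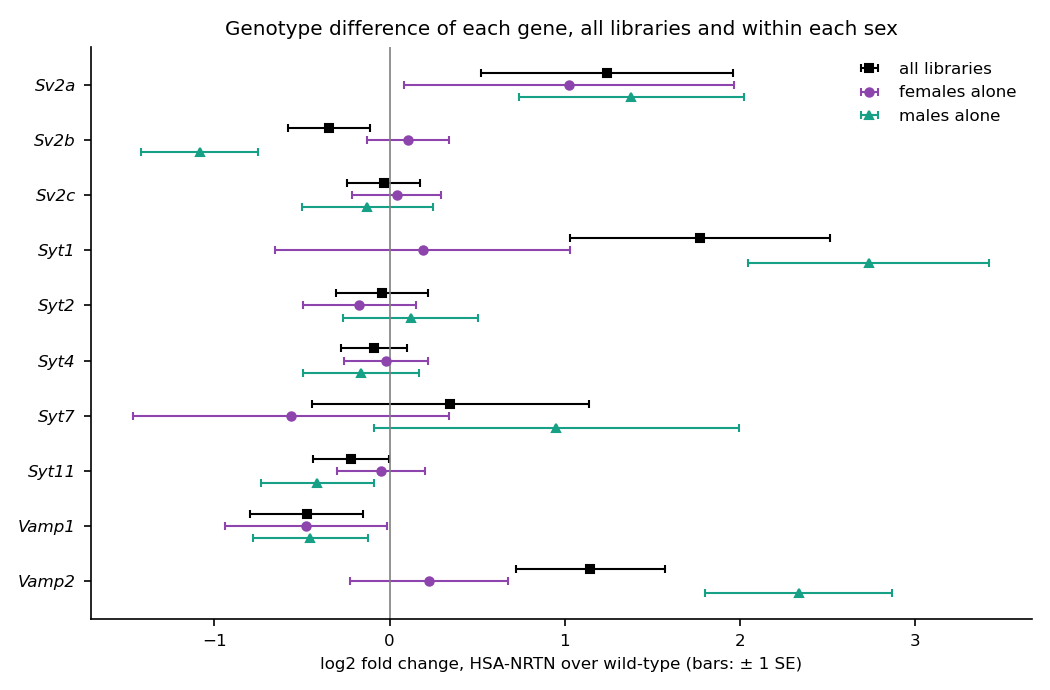
Log2 fold change of HSA-NRTN over wild-type (horizontal axis, bars ± 1 SE) for each of the 10 genes with all libraries (squares), females alone (circles, 3 against 3) and males alone (triangles, 2 against 2). Vamp2, Syt1 and Sv2b lie near 0 in females and away from 0 in males, and Sv2c, Syt4 and Vamp1 have like values in both. Among males genotype cannot be told apart from the run of animal numbers.

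Between the sexes, with genotype in the model, 0 of 10 genes passed in edgeR (adjusted p 0.445 to 0.956), beside 0.0086% of all genes, and the log2 fold change was positive for 2 of 10 and negative for 8, beside 50.8% positive over all genes. Syt1 alone had an unadjusted p under 0.05 (log2 fold change of female over male -1.51, SE 0.71, edgeR adjusted p = 0.445), beside 11.2% of all genes (6.42% positive and 4.77% negative). Its mean was 15.5 ± 10.5 CPM in 6 females and 60.5 ± 57.4 CPM in 4 males (SD). The male mean was 105 CPM in HSA-NRTN and 15.6 CPM in wild-type pools, beside female means of 16.5 and 14.6 CPM. The higher male level of Syt1 thus lay in the HSA-NRTN males. Sv2a was at 31.9 ± 24.7 CPM in 6 females and 84.9 ± 60.7 CPM in 4 males (SD), with a log2 fold change of -1.34 (SE 0.64). DESeq2 and limma voom called 0 of 10, with 2 and 3 genes at an unadjusted p under 0.05, beside 1602 and 1206 of all 11630 genes. With no filter beyond 1 count edgeR called Sv2a (adjusted p = 0.0297), beside 315 of the 26070 genes tested in that setting.

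The release machinery around these proteins was described with 5 lists of partner genes, 62 in all, of which 49 could be tested. In edgeR 0 of 49 passed over all genes, beside 0.0086% of all genes. There were 5 with an unadjusted p under 0.05, 3 positive and 2 negative, beside 4.83% of all genes (2.41% positive and 2.42% negative). Of the 14 tested plasma membrane SNAREs and SNARE handling genes, the log2 fold change was negative for 10 and positive for 4, beside 48.6% positive over all genes. The median of this list was -0.26. The other medians were -0.04 over 6 other synaptotagmins, 0.28 over 2 other VAMPs, 0.04 over 16 genes of priming and the active zone and 0.05 over 11 other vesicle membrane proteins, beside -0.01 over all genes. The genes of smallest p in each list, up to 3, are given with their values.

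Syt17, an atypical synaptotagmin without a transmembrane segment, had the smallest p among them. It was at 23.7, 62.7, 5.50, 9.69 and 25.6 CPM in HSA-NRTN replicates 1 to 5, against 3.90, 0, 0, 0.688 and 0.397 CPM in wild-type replicates 1 to 5. Each HSA-NRTN value exceeded each wild-type value, as was so for 0.645% of all genes, and the counts were 398 over the HSA-NRTN and 23 over the wild-type libraries. It passed the filter on low counts through its HSA-NRTN libraries, so its place among the genes tested is no support for a difference. The fitted log2 fold change over wild-type libraries near 0, which depends on the prior count, was 4.62 (SE 1.02), with an unadjusted edgeR p of 0.000392 and an adjusted p of 0.239, so it did not pass. DESeq2 called it (adjusted p = 0.000121), as did edgeR with no filter beyond 1 count (0.00188) and with the genes detected per library as covariate (0.0277), while limma voom did not (0.569). The range over all alternatives was 0.000121 to 0.998, and the authors' deposited table gives an adjusted p of 0.000329. It was highest in HSA-NRTN replicate 2, and the mean was 13.6 CPM in HSA-NRTN females against 1.53 CPM in wild-type females, and 43.2 CPM in HSA-NRTN males against 0.198 CPM in wild-type males.

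Rab3c, a vesicle GTPase, averaged 282 ± 203 CPM in HSA-NRTN libraries and 138 ± 42.3 CPM in wild-type libraries (SD, n = 5 each), with 429 and 563 CPM in HSA-NRTN replicates 1 and 2 and 113 to 183 CPM in the other 3. Its high values thus lay in the same 2 male pools as those of Syt1 and Vamp2. Syn2, a synapsin that tethers vesicles, was at 348 ± 87.4 and 239 ± 34.5 CPM, and Scamp1, a secretory carrier membrane protein, at 339 ± 50.0 and 470 ± 69.9 CPM (HSA-NRTN and wild-type, SD, n = 5 each). Syt3, a calcium-binding synaptotagmin, averaged 104 ± 18.5 CPM in HSA-NRTN and 148 ± 17.4 CPM in wild-type animals (SD, n = 5 each). Each of these 4 had an unadjusted p under 0.05 and an adjusted p of 0.941 to 0.967 in edgeR.

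The other genes named from the lists had an unadjusted p of 0.0546 to 0.599 in edgeR and an adjusted p of 0.999. The log2 fold change was positive for Slc18a3, the vesicular acetylcholine transporter (0.43, SE 0.21), for Stx4a, a plasma membrane syntaxin (0.64, SE 0.36), and for the VAMPs Vamp4 (0.19, SE 0.22) and Vamp3 (0.37, SE 0.69). It was negative for Rimbp2, an active zone scaffold (-0.75, SE 0.37), Rph3a, a Rab3 effector (-0.42, SE 0.23), Snap47, a SNAP-25 relative (-0.42, SE 0.22), Nsf, the ATPase that takes SNARE complexes apart (-0.30, SE 0.19), and Syt14 (-0.42, SE 0.58).

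**Figure D4:**
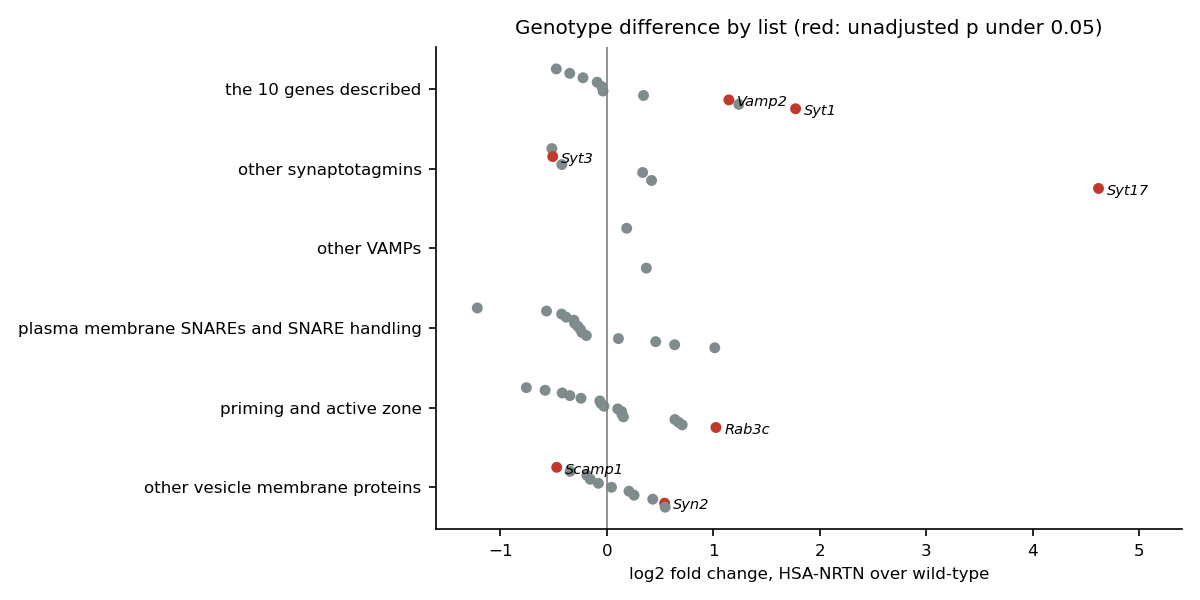
Log2 fold change of HSA-NRTN over wild-type (horizontal axis) for the 10 genes and the tested genes of each partner list (rows), red where the unadjusted edgeR p was under 0.05. Syt17 lies at 4.62, and the other tested partners lie on both sides of 0.

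The genes whose level followed that of Sv2a most closely over the 10 libraries were Atxn2l, Steap2, Narf, Slc12a9 and Ube2j2, with Pearson's r of log2(CPM + 1) between 0.913 and 0.940. These are the 5 highest of the 11630 genes tested and are a description of these libraries. Of the other 9 genes described here, Syt2 was nearest, at r = 0.705, and Sv2b farthest, at -0.29.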

How the data were processed

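Reads were aligned with STAR 2.5.0a and counted per gene with HTSeq on GRCm38.p6 by the authors, per the submitters' processing notes. The sources used here name neither the annotation release nor how HTSeq was set. The deposited files hold raw counts for 51912 genes, with 92 spike-ins and 5 tally entries that name no gene. The tallies made up 57.6% to 86.5% of all reads per library, and neither they nor the spike-ins entered library sizes or tests. A further deposited table holds a signal that was not tested here, the counts divided by 1 size factor per library. The authors' deposited comparison table, from DESeq2 per the submitters' processing notes, gives moderated log2 fold changes, a Wald score and p-values, and was used only where named.

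The deposited tables gave symbols for 18698 genes and the reference the rest, and coordinates and exon lengths from GENCODE M21. The partner gene Vamp7 had no match. Counts were analysed in R 4.3.3 with edgeR 4.0.16: filterByExpr kept 11630 genes, libraries were scaled by TMM, and genotype, sex (with genotype) and their interaction were tested with the quasi-likelihood F test, adjusted by Benjamini-Hochberg and called under 0.05. Standard errors were taken from the F statistic. DESeq2 1.42.0 and limma 3.58.1 (voom) were run on the same genes. Shares used the union of exons and exact permutation tests (scipy 1.17.1). On simulated counts for 11630 genes, the share of genotype changes that edgeR recovered was 11.9% at 2-fold, 35.8% at 4-fold and 65.2% at 8-fold, and 5.06% of 79 calls were false. For the interaction these shares were 1.49%, 1.49% and 10.6%.

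Replicates were numbered in record order, which pairs no animals. The 10 genes, the partner and marker lists and the alternatives were chosen with earlier results of these data known. The 10 genes are named whatever their values, and of each partner list up to 3 genes of smallest p. Gad2 and Snap25 were named after their values were seen. Reads multiplied by PCR, with no molecular identifiers, are not independent molecules.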

Additional observations from a re-analysis of the deposited data

How the results depend on the processing

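No paired analysis was possible because the labels give no replicate number or litter that pairs animals across the genotypes. None of the 10 genes was called for genotype under any of the 20 alternatives run for each, the lowest adjusted p being 0.195 (Syt1). The number of genes called over the whole table moved more: for genotype, 1 with all libraries, 81 with no filter beyond 1 count, 58 in DESeq2, 3 in limma voom, 5 with sex, 0 with the run of animal numbers and 10 with the genes detected per library as covariate, 0 in females alone and 0 in males alone, and 0 to 13 with 1 library left out. For sex it was 1, then 315 with no filter, 105 in DESeq2, 0 in limma voom and 1 to 176 with 1 library left out. For the interaction it was 0, then 35 with no filter, 8 in DESeq2 and 0 to 0 with 1 library left out. The sign of 4 small log2 fold changes turned. Sv2b was at 0.10 in females alone. Sv2c was at 0.0095 with the number of genes detected, 0.083 when HSA-NRTN replicate 2 was left out together with wild-type replicate 1, 0.040 in females alone, and -0.12 to 0.069 with 1 library left out. Syt2 was at 0.19 with the number of genes detected, 0.12 in males alone, and -0.17 to 0.079 with 1 library left out. Syt7 was at -0.34 in limma voom, -0.026 with the run, -0.080 without both libraries, -0.56 in females alone, and -0.24 to 0.88 with 1 library left out. The difference in the Vamp1 share ran from -5.78 to -3.65 points with 1 library left out, that of Sv2a from 3.12 to 8.35 and that of Syt1 from 3.24 to 8.89. Its size also depended on the length used. Without length correction it was -1.91 points for Vamp1, 3.59 for Sv2a and 7.11 for Syt1, and with the longest transcript -4.60, 5.72 and 9.22. The call of the Vamp1 share without wild-type replicate 4 was the single one among the 15 alternatives of each share. The cause was not tested. Sv2a had 9 to 362 counts per library, which limits its precision.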
